A study of Mus musculus with 21 samples.

Results

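Mouse lung fibroblasts carrying the surface proteins Ly6C and Sca-1 were stimulated with TGFb1 alone or with TGFb1 together with TNF, and the change that TNF made on the TGFb1 background was measured across all genes. The experiment holds 3 TGFb1 + TNF libraries and 3 TGFb1 libraries, chosen by their treatment labels, out of 21 stranded total RNA-seq libraries that form 7 groups of 3. Both groups thus carry TGFb1, and neither label names a solvent. A further 3 libraries with TGFb1 + IL1b, another inflammatory cytokine, were set against TGFb1 + TNF, and 3 with TGFb1 + DMSO and 3 with DMSO, the solvent alone, gave the TGFb1 response. The sources used here do not give mouse strain, genotype, age, culture conditions, cytokine dose or duration of exposure. They do not say either whether the libraries of a group came from different cultures or mice, so the p-values speak only of the spread among these libraries, which may be technical.

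TNF is a cytokine made mainly by macrophages and T cells that binds the receptors TNFR1 and TNFR2, encoded by Tnfrsf1a and Tnfrsf1b. Adaptors such as TRADD, RIPK1 and TRAF2 carry the signal to the NF-kB transcription factors and to the kinases that feed the AP-1 factors, and NF-kB switches on its own inhibitors, among them Nfkbia and Tnfaip3. TGFb1 acts through the receptors Tgfbr1 and Tgfbr2 and the SMAD transcription factors, and in lung fibroblasts it is known for raising collagen, contractile proteins and other features of the matrix-building myofibroblast. In the inflamed or fibrotic lung both cytokines are present at once.

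The 3 TGFb1 libraries held 19796379 to 28445604 counts and the 3 TGFb1 + TNF libraries 25609647 to 27273505 counts. Levels are given as CPM, read counts scaled to a common library total with TMM (a correction for library composition), and a log2 fold change of 1 is a doubling. Libraries of the same group correlated at 0.985 to 0.989 (Pearson r across genes, log2 CPM) and libraries of different groups at 0.953 to 0.958. Mitochondrial genes took 0.296 to 0.390% of counts with TGFb1 and 0.422 to 0.490% with TNF; the part of this difference in the results was not tested. All 13 fibroblast markers had counts in both groups, Lum at only 0.0243 ± 0.0210 CPM with TNF, and they summed to 91394 to 94157 CPM with TGFb1 and 49731 to 54192 CPM with TNF. The 13 immune cell markers summed to 8.82 to 11.1 CPM with TGFb1 and 8.32 to 11.98 CPM with TNF, with Ptprc, Adgre1 and Cd3e at 0 in all 6 libraries, and the 11 epithelial markers to at most 1.499 CPM. The 9 endothelial markers summed to 4.57 to 6.03 CPM with TGFb1 and 14.0 to 14.3 CPM with TNF, with Cdh5 going from 0.265 ± 0.172 to 4.54 ± 0.212 CPM and Kdr from 3.18 ± 0.396 to 6.32 ± 0.414, Pecam1 the other way from 0.547 ± 0.242 to 0.160 ± 0.120, and Tie1 and Cldn5 at 0 in every library. The 6 mesothelial markers summed to 28.0 to 32.3 CPM with TGFb1 and 16.01 to 18.1 CPM with TNF, most of it Wt1. The part of these marker differences in the results was not tested. In bulk RNA, fewer cells of a type and less RNA per cell cannot be told apart.

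With TNF the fibroblasts held less of the transcripts for type I and III collagen, contractile proteins and the receptor Tgfbr2, and more of those for cytokines, EGF-family ligands, osteopontin and tenascin C. Of the 16197 genes tested, 4489 were higher (27.7% of genes tested) and 4672 lower (28.8%) at an adjusted p of 0.05 (edgeR quasi-likelihood test, Benjamini-Hochberg adjustment), together 56.6%. At least 2-fold changes were seen for 1085 genes higher (6.7%) and 1541 lower (9.51%), and at least 16-fold changes for 64 higher and 128 lower. In 9542 genes (58.9%) the 3 libraries of one group all lay above the 3 of the other. The median log2 fold change over all genes was -0.0040. Counts of gene list members below are to be read against these shares, 27.7% of all genes higher and 28.8% lower.

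**Figure D1:**
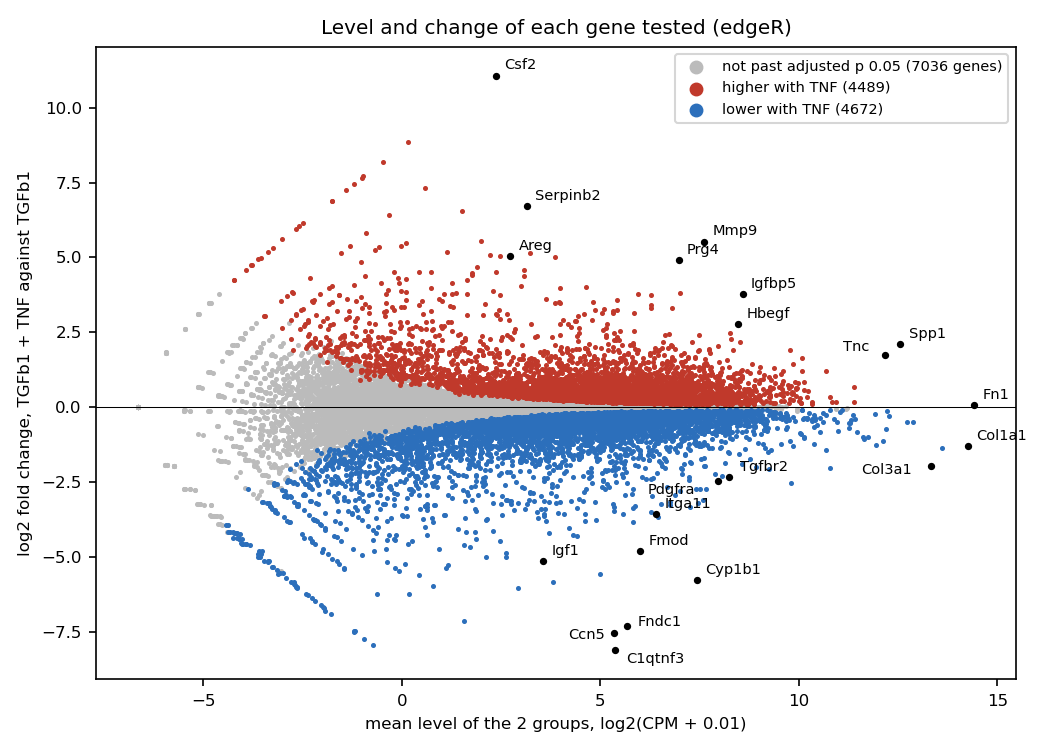
Log2 fold change of each gene tested (TGFb1 + TNF against TGFb1, vertical axis) against its mean level in both groups (log2 of CPM plus 0.01, horizontal axis), with genes past an adjusted p of 0.05 in red (4489 higher) and blue (4672 lower), the other 7036 in grey, and named genes in black. The very abundant Col1a1 and Col3a1 lie below 0 and Fn1 close to 0, while Csf2, at 0 counts in TGFb1, lies at the top.

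Genes of secreted and cell-surface proteins were among those with the strongest rises. The 15 highest and 15 lowest genes are ranked among those that passed, had separate groups and averaged 2 log2 CPM or more, without predicted or clone names. Csf2, which encodes the granulocyte-macrophage colony-stimulating factor GM-CSF (ENSMUSG00000018916, GRCm38 chromosome 11, 54247271 to 54249667, minus strand), had 0 counts in every TGFb1 library and stood at 12.3, 9.60 and 9.09 CPM with TNF. Over the group this was 839 counts against 0, at least 253-fold higher when 0 is replaced by 3 counts. Mmp9, a gelatin- and basement-membrane-cleaving protease (ENSMUSG00000017737, GRCm38 chromosome 2, 164940780 to 164955850, plus strand), stood at 8.57, 7.10 and 9.48 CPM with TGFb1 and 409, 361 and 379 CPM with TNF. The groups were far apart, and the rise was 46.2-fold (log2 fold change 5.53 ± 0.084, adjusted p = 1.69e-43, edgeR). Serpinb2, the plasminogen activator inhibitor PAI-2, stood at 0.115, 0.286 and 0.0515 CPM with TGFb1 and 20.5, 16.2 and 15.9 CPM with TNF (log2 fold change 6.71 ± 0.30, or 7.56 without TGFb1 library 2). Areg, the EGF receptor ligand amphiregulin, rose 33.2-fold, from 0.390 ± 0.174 to 12.8 ± 3.24 CPM (mean ± SD, n = 3), a log2 fold change of 5.05 that was 6.82 with TGFb1 + DMSO as the control. Cd40, a TNF receptor family member that responds to CD40 ligand, rose 32.8-fold (log2 fold change 5.04, or 5.80 without TGFb1 library 1) and Prg4, the lubricating proteoglycan of joint and serosal surfaces, rose 29.98-fold, from 8.14 ± 0.694 to 243 ± 18.99 CPM. Other genes among the 15 highest were Pkp1 (log2 fold change 5.16), a desmosomal plakophilin, Podxl (5.09, or 4.43 with TGFb1 + DMSO as the control), a sialomucin, Ndst3 (5.004), a heparan sulfate sulfotransferase, Dmrta1 (4.58), Acpp (4.40), an acid phosphatase, Tmem74 (4.05), Usp43 (3.97) and Neurl3 (3.90).

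Among the strongest falls were secreted matrix proteins. The level needed for the ranking left out less abundant genes with large falls, such as Lgr5 (log2 fold change -7.12) and Sprr2b (-5.97). C1qtnf3, a secreted C1q/TNF-related protein (ENSMUSG00000058914, GRCm38 chromosome 15, 10952332 to 10980150, plus strand), stood at 83.2, 82.9 and 82.02 CPM with TGFb1 and 0.112, 0.534 and 0.228 CPM with TNF, a 276-fold fall (log2 fold change -8.11 ± 0.18, adjusted p = 7.5e-23, edgeR), and without TNF library 2 its log2 fold change was -8.89. Ccn5, a matricellular CCN family member, stood at 77.8, 77.6 and 84.5 CPM with TGFb1 and 0.744, 0.462 and 0.0761 CPM with TNF (log2 fold change -7.52, or -8.15 without TNF library 1). Fndc1, a fibronectin type III domain protein, stood at 110.4, 94.7 and 101 CPM with TGFb1 and 0.744, 0.676 and 0.494 CPM with TNF. All 3 genes stood below 1 CPM in every TNF library. Cyp1b1, a cytochrome P450 that metabolises steroids and xenobiotics, fell 54.01-fold, from 337 ± 7.64 to 6.24 ± 0.889 CPM. Igf1, insulin-like growth factor 1, fell 35.1-fold, from 23.01 ± 1.02 to 0.651 ± 0.274 CPM. Fmod, which encodes the collagen-binding proteoglycan fibromodulin, fell 27.9-fold, and Aspn, which encodes the related asporin, fell 56.9-fold (log2 fold change -5.83, or -6.79 without TNF library 2). The remaining genes among the 15 lowest were Mfap4 (log2 fold change -6.04), an elastic microfibril protein, Serpinb1a (-5.56), a neutrophil protease inhibitor whose family holds near-identical copies, Cilp (-4.995, or -5.95 without TNF library 2 and -4.02 with TGFb1 + DMSO as the control), Prr9 (-4.99), Rab3il1 (-4.85), Adm (-4.47), the vasodilator peptide adrenomedullin, Col8a2 (-4.31) and Gabra3 (-4.26), a GABA receptor subunit.

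Promoters were read from RefSeq (GRCm38.p6) for 10821 of the 16197 genes, as 13846 windows of the 250 bases before each transcription start, on both strands. An NF-kB type motif, GGG, 3 free bases and TTCC, was in 5.08% of all windows, 6.71% of those of genes at least 4-fold higher (20 of 298) and 4.02% of those at least 4-fold lower (20 of 497). The AP-1 motif TGAGTCA was in 3.41% of all windows, 10.1% of the 4-fold higher (30 of 298) and 5.03% of the 4-fold lower (25 of 497), counting TGACTCA, its other strand. An interferon response type motif, GAAA, 2 free bases and GAAA, was in 2.65%, 4.36% and 3.02%. A match describes these letters and shows no binding. Shares by gene are also given for the list or named genes that rose. Those genes were picked for known roles or large changes, with earlier results of these data known. Their higher shares may come from that choice and are no test. Counted by gene, the interferon response type motif was in 10.1% of the 189 such genes with a window and in 3.22% of all 10821. Counted by gene, the NF-kB type motif was in a window of 26 of the 189 list or named genes that rose and have one (13.8%) and in 6.03% of all 10821 genes, and the 5 of those 26 with the largest rise are printed to show where it lies: Neurl3 (chr1:36273426-36273675, minus strand), Oas3 (chr5:120777660-120777909, minus), Fgf21 (chr7:45615491-45615740, minus), Cxcl1 (chr5:90890995-90891244, plus) and Kitl (chr10:100015571-100015820, plus), with every match in capitals, read along the gene.
Neurl3: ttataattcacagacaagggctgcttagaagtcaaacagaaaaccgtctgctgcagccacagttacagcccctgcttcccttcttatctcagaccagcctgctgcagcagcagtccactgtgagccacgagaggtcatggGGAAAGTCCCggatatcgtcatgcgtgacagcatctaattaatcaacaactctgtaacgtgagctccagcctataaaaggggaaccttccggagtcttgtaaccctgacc
Oas3: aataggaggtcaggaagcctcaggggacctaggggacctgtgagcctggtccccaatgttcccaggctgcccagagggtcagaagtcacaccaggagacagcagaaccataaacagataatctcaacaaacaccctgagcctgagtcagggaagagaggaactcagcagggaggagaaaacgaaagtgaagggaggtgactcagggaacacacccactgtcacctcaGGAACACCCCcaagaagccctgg
Fgf21: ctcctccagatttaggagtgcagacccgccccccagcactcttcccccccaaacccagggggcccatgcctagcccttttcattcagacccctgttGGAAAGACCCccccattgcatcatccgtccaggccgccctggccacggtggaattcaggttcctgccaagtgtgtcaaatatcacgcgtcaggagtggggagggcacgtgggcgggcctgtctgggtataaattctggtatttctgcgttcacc
Cxcl1: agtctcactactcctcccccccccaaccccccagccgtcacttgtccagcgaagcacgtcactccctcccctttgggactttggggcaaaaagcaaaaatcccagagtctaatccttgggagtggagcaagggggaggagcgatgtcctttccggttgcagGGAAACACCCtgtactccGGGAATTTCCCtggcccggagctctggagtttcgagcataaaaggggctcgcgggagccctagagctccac
Kitl: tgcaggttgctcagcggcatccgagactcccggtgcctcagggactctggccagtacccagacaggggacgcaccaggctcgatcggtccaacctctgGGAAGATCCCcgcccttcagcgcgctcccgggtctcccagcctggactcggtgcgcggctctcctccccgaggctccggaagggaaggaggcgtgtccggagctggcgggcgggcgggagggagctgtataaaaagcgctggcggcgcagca
The Cxcl1 window holds 3 matches, which begin 89, 71 and 70 bases before the start, and the others 1 each, at 110 (Neurl3), 23 (Oas3), 154 (Fgf21) and 152 (Kitl) bases. Of the same 189 genes, 17 held the AP-1 motif (8.99%, against 4.18% of all 10821), and 4 stretches around it, chosen after their values were seen, show that it also lies before genes of the interferon, hyaluronan, chemokine and IL6-family groups: Oas3 (chr5:120777687-120777733, minus), Tnfaip6 (chr2:52037951-52037997, plus), Cxcl10 (chr5:92348937-92348983, minus) and Il11 (chr7:4778213-4778259, minus), with the motif in capitals.
Oas3: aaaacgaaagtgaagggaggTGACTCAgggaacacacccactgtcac
Tnfaip6: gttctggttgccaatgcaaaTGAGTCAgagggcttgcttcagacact
Cxcl10: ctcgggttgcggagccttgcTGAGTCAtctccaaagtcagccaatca
Il11: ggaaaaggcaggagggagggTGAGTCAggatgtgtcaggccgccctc

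NF-kB subunits and their feedback inhibitors were mostly higher with TNF: of 19 tested, 13 rose, 2 fell and 4 did not pass, with a median log2 fold change of 0.81. Relb, the subunit of the noncanonical NF-kB dimer (ENSMUSG00000002983, GRCm38 chromosome 7, 19606217 to 19629438, minus strand), stood at 16.6, 21.7 and 18.6 CPM with TGFb1 and 69.996, 67.9 and 69.6 CPM with TNF, a 3.63-fold rise (adjusted p = 1.44e-26, edgeR). Tnfaip3, which encodes the ubiquitin-editing inhibitor A20 (ENSMUSG00000019850, GRCm38 chromosome 10, 19000910 to 19015657, minus strand), stood at 31.5, 34.6 and 31.1 CPM with TGFb1 and 81.5, 80.5 and 77.8 CPM with TNF, and Nfkbie, an inhibitor of the IkB family, at 17.2, 16.5 and 20.97 CPM with TGFb1 and 49.8, 49.7 and 50.4 CPM with TNF. In none of the 3 did the groups overlap. Nfkbia, which encodes IkBa, rose less, 1.53-fold, and Nfkb2 rose 1.75-fold. Tnip3 and Traf1, a partner of A20 and a TNF receptor-associated factor, were nearly silent with TGFb1: Tnip3 went from 0 to 69 counts, at least 20.8-fold higher, and Traf1 stood at 0.0384, 0 and 0 CPM with TGFb1 and 3.09, 3.77 and 1.94 CPM with TNF. The genes that did not pass included Nfkbiz (log2 fold change -0.12), an atypical IkB protein, and Zc3h12a (-0.11), an RNase that degrades inflammatory mRNAs, while Bcl3 fell (-0.39).

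Receptors and adaptors of TNF and IL1 moved in both directions: of 23 tested, 8 rose, 10 fell and 5 did not pass (median -0.17). These are 34.8% higher and 43.5% lower, against 27.7% and 28.8% of all genes tested. The TNF receptor genes themselves were lower. Tnfrsf1a stood at 209, 198 and 199 CPM with TGFb1 and 144, 139 and 144 CPM with TNF (1.42-fold lower), and Tnfrsf1b at 104, 114 and 122 CPM with TGFb1 and 89.7, 95.9 and 93.4 CPM with TNF (1.21-fold lower). The groups did not overlap for either receptor. The adaptors Tradd (-0.79) and Ripk1 (-0.43) fell as well. Il1rn, the IL1 receptor antagonist, fell from 177 ± 24.99 to 28.4 ± 1.48 CPM (6.24-fold), and Irak3, an inhibitor of IL1 receptor signalling, fell 3.38-fold. Tlr2 (log2 fold change 1.41), a receptor for bacterial lipoproteins, rose. Il1rap and Il1rl1 (log2 fold changes 1.52 and 1.64), receptor chains for IL1 and IL33, rose too, and Il1rl1 was at 2.65 with TGFb1 + DMSO as the control. The cells' own Tnf rose but stayed low, at 1.67, 1.42 and 1.29 CPM (log2 fold change 3.90, or 4.92 without TGFb1 library 2 and 2.71 with TGFb1 + DMSO as the control).

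Among 16 chemokine genes, 7 rose, 3 fell and the remaining 6 missed the threshold (median 0.57, or 0.39 when a gene at 0 counts in one group is held at its bound). Ccl2, a monocyte chemokine, stood at 43.7, 36.7 and 38.999 CPM with TGFb1 and 133, 122 and 117 CPM with TNF. Cxcl10, which draws CXCR3-bearing T cells, stood at 37.1, 33.05 and 23.96 CPM with TGFb1 and 214, 143 and 142 CPM with TNF. Both rose, Cxcl10 by 5.27-fold, with TNF library 1 the highest. Ccl5, a T cell chemokine, rose 7.58-fold and Cxcl16 rose 3.33-fold, while the neutrophil chemokine Cxcl1 rose 8.55-fold to only 7.37 ± 0.619 CPM. Cxcl12, the homeostatic ligand of CXCR4, moved the other way, at 748, 778 and 794 CPM with TGFb1 and 182, 206 and 198 CPM with TNF, and Cx3cl1 fell 1.75-fold.

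Of 16 cytokine and colony-stimulating factor genes, 12 were higher and 0 lower, and 4 missed the threshold (median 1.05, or 1.04 with such genes at their bound). Besides Csf2, Csf1, the macrophage growth factor, stood at 252, 233 and 245 CPM with TGFb1 and 467, 474 and 469.8 CPM with TNF. Tslp, an epithelial-type alarmin, rose 19.04-fold, from 0.320 ± 0.169 to 5.85 ± 0.675 CPM (log2 fold change 4.25, or 3.29 with TGFb1 + DMSO as the control), and Il33, a nuclear alarmin, rose 3.88-fold. Il11, an IL6-family cytokine that fibroblasts make under TGFb1, stood at 7.61, 5.92 and 7.01 CPM with TGFb1 and 22.98, 22.1 and 20.4 CPM with TNF. Lif, of the same family, rose 1.82-fold, but Il6 itself only 1.28-fold (log2 fold change 0.35 ± 0.088). Against TGFb1 + DMSO the log2 fold change of Il6 was 0.15 and missed the threshold. Il1a went from 0 to 7 counts, at least 2.11-fold higher, and missed the threshold when any 1 TGFb1 library or TNF library 3 was left out. Of 7 leukocyte adhesion genes, 5 rose and 2 did not pass (median 1.06). Alcam, a ligand of CD6 on T cells, stood at 13.5, 14.7 and 11.1 CPM with TGFb1 and 161, 135 and 129 CPM with TNF, and Cd44, the hyaluronan receptor, rose 2.09-fold. Vcam1, the ligand of the integrin VLA-4, rose 1.46-fold.

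Interferon-stimulated genes were higher with TNF in 32 of 37 tested, with 5 that did not pass and 0 lower (median 1.05). Ifih1, which encodes the RNA sensor MDA5, stood at 19.5, 17.8 and 15.5 CPM with TGFb1 and 90.9, 67.6 and 66.1 CPM with TNF. Isg15, a ubiquitin-like modifier, stood at 18.9, 18.99 and 13.6 CPM with TGFb1 and 79.2, 54.995 and 54.9 CPM with TNF, and Rsad2, which encodes the antiviral enzyme viperin, at 12.2, 13.7 and 8.45 CPM with TGFb1 and 61.03, 40.6 and 37.7 CPM with TNF. In each of these 3 genes TNF library 1 was the highest and TGFb1 library 3 the lowest. Over the list, TNF library 1 was the highest of its group in 35 of 37 genes and TGFb1 library 3 the lowest in 31. Without TNF library 1, 28 members passed, and without TGFb1 library 3, 29. Against TGFb1 + DMSO in place of TGFb1, 23 passed. Oas3, which makes the activator of RNase L, rose 10.6-fold and Ifi44 rose 6.41-fold (log2 fold changes 3.40 and 2.68). With TGFb1 + DMSO as the control the log2 fold changes were 2.37 for Oas3, 1.77 for Ifi44 and 1.13 for Rsad2, against 2.001 for Rsad2 here.

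Antigen presentation genes were mostly higher, with 11 of 14 higher, 1 lower and 2 that did not pass (median 0.62); TNF library 1 was the highest of its group in 11 of the 14, and without it 9 were higher. B2m, the light chain of MHC class I, stood at 748, 684 and 659.9 CPM with TGFb1 and 1012, 953 and 949 CPM with TNF. The class I heavy chain genes H2-K1 and H2-D1 rose 2.07-fold and 2.12-fold; both have near-identical relatives, and the sources used here do not give how shared reads were counted. Cd74, the invariant chain of MHC class II, rose 2.21-fold and Nlrc5, the class I transactivator, rose 1.89-fold, while the peptide transporter subunit Tap2 fell 1.44-fold.

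Acute phase and complement genes were split: of 15 tested, 3 rose, 7 fell and 5 did not pass (median -0.34). C3, the central complement component, stood at 107, 90.2 and 95.5 CPM with TGFb1 and 304, 284 and 308 CPM with TNF, a 3.06-fold rise. C4b, a component of the classical pathway, stood at 23.9, 23.7 and 21.5 CPM with TGFb1 and 2.12, 1.60 and 1.33 CPM with TNF, a 13.7-fold fall. The classical pathway proteases C1ra and C1s1 fell 1.68-fold and 1.52-fold. Prostaglandin and redox genes leaned upward, with 8 of 16 higher and 5 lower (median 0.36). Ptgs2, the inducible cyclooxygenase, stood at 123, 105 and 107 CPM with TGFb1 and 347, 296 and 256 CPM with TNF, and Ptgs1, its constitutive relative, rose 1.77-fold. Slc7a11, the cystine importer, rose 4.23-fold and Txnrd1, thioredoxin reductase, rose 2.54-fold, but Nox4, the hydrogen peroxide-making oxidase of myofibroblasts, fell 2.69-fold.

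Most matrix genes fell. Of 30 fibrillar collagen and matrix genes, 25 fell, 4 rose and 1, Fn1, missed the threshold (median -1.15). Col1a1 (ENSMUSG00000001506, GRCm38 chromosome 11, 94936224 to 94953042, plus strand), the alpha 1 chain of type I collagen, stood at 27124, 27279.8 and 28759.7 CPM with TGFb1 and 11454, 10868 and 11572 CPM with TNF. Col3a1, the chain of type III collagen (ENSMUSG00000026043, GRCm38 chromosome 1, 45311538 to 45349706, plus strand), stood at 16942, 16084 and 16426 CPM with TGFb1 and 4208, 4211 and 4303 CPM with TNF. The falls were 2.45-fold and 3.89-fold (adjusted p = 4.63e-32 and 6.23e-41, edgeR), with no overlap between groups. Together with Col1a2, the other type I chain, these genes took 6.03, 6.04 and 6.23% of all counts in the TGFb1 libraries and 2.31, 2.27 and 2.37% in the TNF libraries. The minor fibrillar chain Col11a1 fell 10.1-fold, and Col12a1 and Col14a1, which coat fibril surfaces, fell 5.69-fold and 7.81-fold. Col5a1 and Col5a2, which start fibril assembly, fell 2.06-fold and 2.17-fold, while Col5a3 rose, from 517 ± 20.03 to 1634 ± 30.9 CPM. Thbs1, thrombospondin 1, which can activate latent TGFb, fell 4.03-fold, and Cthrc1, a marker of matrix-producing lung fibroblasts, fell 3.15-fold. Postn (-0.71), which encodes periostin, and Sparc (-0.49) fell less.

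A few abundant matrix and secreted genes went up. Tnc, tenascin C, a matrix protein of wounds, stood at 2308, 2019.9 and 2046 CPM with TGFb1 and 7776, 6573 and 6933 CPM with TNF. Spp1, osteopontin, a secreted integrin ligand (ENSMUSG00000029304, GRCm38 chromosome 5, 104435118 to 104441050, plus strand), stood at 2605, 2125 and 2082 CPM with TGFb1 and 10513, 9678 and 9177 CPM with TNF. They rose 3.34-fold and 4.31-fold, and Spp1 gained more CPM than any other gene tested. Dcn, the proteoglycan decorin, rose 2.37-fold and Col8a1 rose 1.77-fold. Fn1, fibronectin, stood at 21135, 20875 and 21326 CPM with TGFb1 and 24232, 20781 and 21876 CPM with TNF (log2 fold change 0.08 ± 0.037, adjusted p = 0.0632, edgeR), with overlapping groups. Without TNF library 2 its log2 fold change was 0.13 with an adjusted p of 0.00338.

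**Figure D2:**
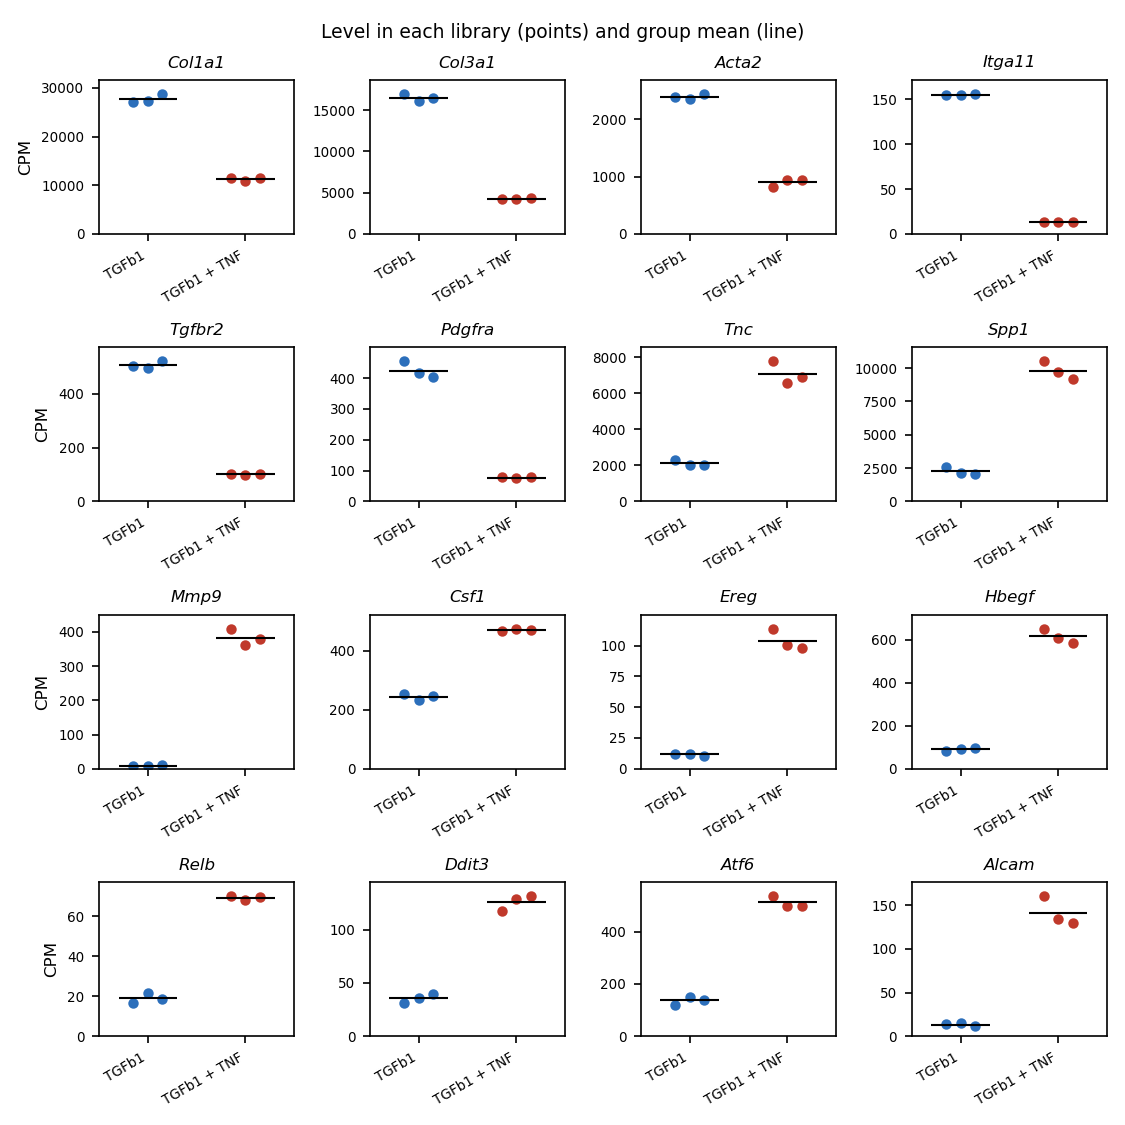
Level (CPM, linear axis from 0) of 16 genes in each TGFb1 library (blue points) and each TGFb1 + TNF library (red points), with the group mean as a line. Collagen, contractile and receptor genes such as Col1a1, Itga11 and Tgfbr2 lie lower in all 3 TNF libraries, and Spp1, Mmp9, Hbegf and Atf6 lie higher in all 3.

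Genes that process the matrix fell in the same comparison. Of 24 collagen processing and crosslinking genes, 20 fell, 2 rose and 2 did not pass (median -0.49). Lox, lysyl oxidase, which crosslinks collagen and elastin, stood at 4349, 4691 and 4585 CPM with TGFb1 and 2060.1, 2466 and 2369 CPM with TNF. Plod2, a collagen lysyl hydroxylase, fell 1.87-fold and P4ha3, a prolyl hydroxylase subunit, fell 3.56-fold. Pcolce, which speeds procollagen C-terminal cleavage, fell 2.57-fold, whereas its relative Pcolce2 rose 2.87-fold. Of 14 elastic fibre genes, 12 fell, 0 rose and 2 did not pass (median -0.66). Eln, elastin, stood at 40.4, 35.8 and 39.1 CPM with TGFb1 and 2.94, 4.94 and 3.31 CPM with TNF, and Emilin1, an elastic fibre glycoprotein, fell 3.90-fold. Of 16 basement membrane genes, 11 fell and 5 rose (median -0.70): Col4a1 fell 1.65-fold and Lama2, a laminin chain, 3.52-fold, while Col18a1 rose 1.75-fold.

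Proteases and their inhibitors were mostly lower, with 16 of 27 tested falling, 6 rising and 5 not passing (median -0.79). Mmp2 and Mmp14, the gelatinase and its membrane-bound activator, fell 2.33-fold and 2.66-fold, and the stromelysin Mmp3 stood at 77.2, 69.1 and 61.7 CPM with TGFb1 and 19.6, 13.9 and 17.4 CPM with TNF. The aggrecan-cleaving Adamts5 fell 4.75-fold and Adamts9 fell 9.20-fold. Mmp9 and Serpinb2 stood out in the other direction. Timp1, the inducible metalloproteinase inhibitor, stood at 527, 477 and 478 CPM with TGFb1 and 1427, 1312 and 1288 CPM with TNF, a 2.72-fold rise. Timp2 and Timp3 fell, 2.31-fold and 1.73-fold.

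Contractile and myofibroblast genes fell in 19 of 23 cases, with 1 higher and 3 that did not pass (median -0.88). Acta2, the smooth muscle actin that defines myofibroblasts (ENSMUSG00000035783, GRCm38 chromosome 19, 34241090 to 34255590, minus strand), stood at 2384, 2355 and 2438 CPM with TGFb1 and 818, 940.3 and 946 CPM with TNF, a 2.65-fold fall (adjusted p = 9.61e-23, edgeR). Myl9, the regulatory myosin light chain, stood at 311, 326 and 321 CPM with TGFb1 and 29.9, 37.9 and 37.4 CPM with TNF. Itga11, a collagen-binding integrin subunit, stood at 155, 155 and 156 CPM with TGFb1 and 12.9, 12.9 and 13.7 CPM with TNF. Mylk, the kinase of that light chain, fell 9.25-fold, Lmod1, an actin nucleator, 13.9-fold (log2 fold change -3.80, or -3.13 with TGFb1 + DMSO as the control) and Cnn1, calponin, 4.06-fold. Itgb1, the shared integrin beta chain, rose 1.12-fold. The 10 mural and smooth muscle cell markers summed to 1154 to 1198 CPM with TGFb1 and 508 to 531 CPM with TNF, mostly Pdgfrb, which fell from 970.0 ± 30.6 to 236 ± 8.13 CPM, and Cspg4, which rose from 113 ± 9.13 to 273 ± 6.21; fibroblasts express both, and the part of these markers in this result was not tested.

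Genes known as TGFb and SMAD targets fell in 14 of 20 cases, with 4 higher and 2 that did not pass (median -0.61). Lrrc15, a surface protein of TGFb-driven fibroblasts, stood at 59.7, 47.4 and 50.1 CPM with TGFb1 and 6.32, 5.26 and 6.05 CPM with TNF (log2 fold change -3.16, or -2.35 with TGFb1 + DMSO as the control). Tgfbi, a TGFb-induced matrix protein, fell 4.71-fold and the feedback gene Pmepa1 fell 2.16-fold. Ccn2, connective tissue growth factor, fell only 1.33-fold, and against TGFb1 + DMSO its log2 fold change was 0.06. Smad7, the inhibitory SMAD, stood at 72.5, 85.7 and 79.8 CPM with TGFb1 and 79.2, 76.3 and 82.8 CPM with TNF (log2 fold change 0.001, adjusted p = 0.992, edgeR), so no difference passed there. Tgif1, a SMAD corepressor, rose 2.89-fold.

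In the pathway itself, 11 of 20 TGFb ligand, receptor and SMAD genes fell, 5 rose and 4 did not pass (median -0.80). Tgfbr2, the ligand-binding receptor (ENSMUSG00000032440, GRCm38 chromosome 9, 116084293 to 116175360, minus strand), stood at 504, 496 and 521 CPM with TGFb1 and 102, 96.9 and 103 CPM with TNF, a 5.05-fold fall (adjusted p = 3.73e-42, edgeR). Its signalling partner Tgfbr1 stood at 68.8, 78.4 and 78.2 CPM with TGFb1 and 72.7, 82.96 and 75.8 CPM with TNF, with overlapping groups (log2 fold change 0.04 ± 0.056). Tgfbr3, the coreceptor betaglycan, fell 2.63-fold. Among ligands, Tgfb2 and Tgfb3 fell 2.94-fold and 2.53-fold, while Tgfb1 rose 1.47-fold. Inhba, the activin A subunit, stood at 357, 379 and 369 CPM with TGFb1 and 1449, 1357 and 1319 CPM with TNF (log2 fold change 1.90, or 2.62 with TGFb1 + DMSO as the control), and Fst, its antagonist follistatin, fell 3.78-fold. Smad3 (0.18) rose slightly and Smad6 (-1.65) fell.

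ID family and BMP genes fell in 9 of 13 cases, 3 rose and 1 did not pass (median -1.17). Id3, a BMP-induced inhibitor of bHLH factors, stood at 41.03, 41.4 and 48.2 CPM with TGFb1 and 7.14, 9.43 and 8.63 CPM with TNF. Smad9, a BMP-responsive SMAD, fell 6.37-fold and Atoh8 fell 6.72-fold. Id1 rose 1.68-fold but missed the threshold without TGFb1 library 2 (log2 fold change 0.60). Of 21 Wnt and beta-catenin genes, 12 fell, 6 rose and 3 did not pass (median -0.81). Axin2, a direct beta-catenin target, stood at 5.95, 5.42 and 7.16 CPM with TGFb1 and 0.818, 1.60 and 0.913 CPM with TNF, and Lgr5, an R-spondin receptor, at 5.45, 5.42 and 6.70 CPM with TGFb1 and 0, 0.107 and 0 CPM with TNF. Both were lower in every TNF library. Sfrp1, a secreted Wnt antagonist, fell 9.99-fold and Dkk3 fell 5.16-fold, while the antagonist Dkk2 rose 3.99-fold and the beta-catenin partner Lef1 1.94-fold.

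Growth factor genes moved in both directions. Of 29 ligands, binding proteins and receptors, 13 rose, 9 fell and 7 did not pass (median -0.05). That is 44.8% higher and 31.0% lower, against 27.7% and 28.8% of all genes tested. The EGF receptor ligands were raised together with Areg: Ereg, epiregulin, stood at 11.98, 12.2 and 10.5 CPM with TGFb1 and 114, 101 and 97.6 CPM with TNF, and Hbegf, heparin-binding EGF, at 83.4, 90.3 and 97.5 CPM with TGFb1 and 652, 611 and 586 CPM with TNF. Btc, betacellulin, stood at 0, 0.428 and 0 CPM with TGFb1 and 8.37, 7.54 and 7.42 CPM with TNF. The receptor gene Egfr stood at 138 ± 5.53 and 134 ± 3.77 CPM and did not pass (adjusted p = 0.435, edgeR).

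Both PDGF ligand genes named here were higher and both PDGF receptor genes lower. Pdgfa stood at 91.5, 89.1 and 88.4 CPM with TGFb1 and 360.3, 326 and 326 CPM with TNF, and Pdgfb rose 3.91-fold. Pdgfra, the receptor that marks lung fibroblasts (ENSMUSG00000029231, GRCm38 chromosome 5, 75152292 to 75198215, plus strand), stood at 454, 415 and 404 CPM with TGFb1 and 77.7, 74.7 and 77.9 CPM with TNF, and Pdgfrb fell 4.11-fold. Igfbp5, an insulin-like growth factor binding protein, stood at 54.6, 52.04 and 48.5 CPM with TGFb1 and 749, 680.2 and 711 CPM with TNF, a 13.8-fold rise, while Igfbp3 fell 8.90-fold alongside Igf1. Vegfa, the angiogenic growth factor, and Vegfc, its lymphatic relative, rose 2.30-fold and 3.75-fold, and Vegfd fell 4.24-fold. The stress-induced hormones Fgf21 and Gdf15 rose 8.85-fold and 6.91-fold (Gdf15 log2 fold change 2.79, or 3.52 with TGFb1 + DMSO as the control).

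Markers of fibroblast state changed as well, including those used to name the cells. Ly6a, which encodes Sca-1, stood at 97.5, 83.1 and 79.3 CPM with TGFb1 and 29.5, 23.6 and 27.3 CPM with TNF. Ly6c1, one of the genes for Ly6C, stood at 27.7, 23.3 and 21.02 CPM with TGFb1 and 5.80, 5.66 and 6.62 CPM with TNF; it has a near-identical neighbour, Ly6c2, and its counts are uncertain to that extent. Of 21 adventitial fibroblast and Ly6 genes, 12 fell, 6 rose and 3 did not pass (median -1.01). Cd34, a sialomucin of adventitial fibroblasts, went up, at 5.11, 6.53 and 6.49 CPM with TGFb1 and 39.2, 37.7 and 37.5 CPM with TNF. Thy1 and Cd248, surface proteins of fibroblasts, fell 2.02-fold and 3.32-fold. Of 13 alveolar and lipid-handling markers, 5 fell, 3 rose and 5 did not pass (median -0.45), with the adipogenic factor Pparg 3.33-fold lower and the lipid droplet gene Plin2 1.44-fold higher. The list thus had 38.5% lower and 23.1% higher, against 28.8% and 27.7% of all genes tested. Transcription factors of the mesenchyme moved in both directions, 9 up and 9 down of 22 (median 0.00): the homeobox gene Meox1 stood at 5.76, 6.75 and 7.37 CPM with TGFb1 and 83.6, 79.1 and 75.8 CPM with TNF (log2 fold change 3.59, or 5.02 with TGFb1 + DMSO as the control) and Sox9 rose 3.37-fold, while Snai1 fell 2.92-fold and Snai2 rose 2.12-fold. Among 17 hyaluronan and proteoglycan genes, 6 rose and 9 fell (median -0.25), with the hyaluronan-binding Tnfaip6 9.32-fold and the synthase Has1 5.11-fold higher, the synthase Has2 1.95-fold lower and the hyaluronan-degrading Cemip 11.3-fold lower.

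Immediate early genes rose in 10 and fell in 10 of 24 cases (median -0.08). TNF library 1 was the highest of its group in 23 of the 24; without it 10 rose and 11 fell. Atf3, a stress-induced transcription factor, stood at 18.9, 21.6 and 19.9 CPM with TGFb1 and 212, 204 and 192 CPM with TNF, and Fos, an AP-1 subunit, at 163, 112 and 112 CPM with TGFb1 and 28.2, 23.2 and 23.2 CPM with TNF. The AP-1 subunits Junb and Fosl1 rose 1.58-fold and 1.45-fold, and Jun and Fosl2 fell 1.70-fold and 1.96-fold. Of 34 cell cycle genes, 16 rose, 10 fell and 8 did not pass (median 0.12). The D cyclins Ccnd1 and Ccnd2 rose 1.84-fold and 1.82-fold (Ccnd1 log2 fold change 0.88, or 1.53 with TGFb1 + DMSO as the control), the E cyclins Ccne1 and Ccne2 both fell 2.04-fold, and Mki67 did not pass (0.12 ± 0.085). Of 21 p53, apoptosis and survival genes, 12 rose, 5 fell and 4 did not pass (median 0.23). The survival genes Bcl2l1 and Cflar, an inhibitor of caspase 8, rose 2.70-fold and 1.84-fold. The proapoptotic Bbc3 rose as well (log2 fold change 1.23).

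All 20 ATF4 and amino acid synthesis genes rose (median 0.90). TGFb1 library 1 was the lowest of its group in 16 of the 20, and all 20 also rose without it. Ddit3, which encodes the stress factor CHOP, stood at 31.3, 35.6 and 39.8 CPM with TGFb1 and 118, 129 and 132 CPM with TNF. Atf4, the transcription factor itself, rose 1.77-fold, Psph, the last enzyme of serine synthesis, 3.18-fold and Asns, asparagine synthetase, 2.17-fold. The secretory pathway and unfolded protein response list had 5 of 21 higher, 11 lower and 5 that did not pass (median -0.27). The stress sensors Atf6 and Ern1 rose, Atf6 at 120.3, 150.1 and 140.2 CPM with TGFb1 and 537, 501 and 499.5 CPM with TNF. The endoplasmic reticulum chaperone Hspa5 did not pass (-0.07 ± 0.041), and Calr, calreticulin, and Creb3l1, a transcription factor for procollagen secretion, fell 1.77-fold and 2.38-fold.

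Sterol and fatty acid synthesis genes fell in 16 of 23 cases with 0 higher (median -0.44), among them Hmgcs1, an early enzyme of the mevalonate pathway, 2.16-fold. Glycolysis and hypoxia genes fell in 17 of 24 cases, with 3 higher and 4 that did not pass (median -0.60). Pfkfb3, which makes the activator of phosphofructokinase, stood at 78.7, 80.8 and 79.2 CPM with TGFb1 and 13.9, 16.97 and 17.2 CPM with TNF. Hif1a, the hypoxia-inducible factor, fell 1.53-fold and the enolase gene Eno1 2.12-fold, whereas the glucose transporter Slc2a1 and hexokinase Hk2 rose 1.25-fold and 1.34-fold. Gapdh held only 45 counts over all 21 libraries, and the sources used here do not say how reads shared with near-identical copies were counted, so levels of glycolysis genes with such copies are uncertain.

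**Figure D3:**
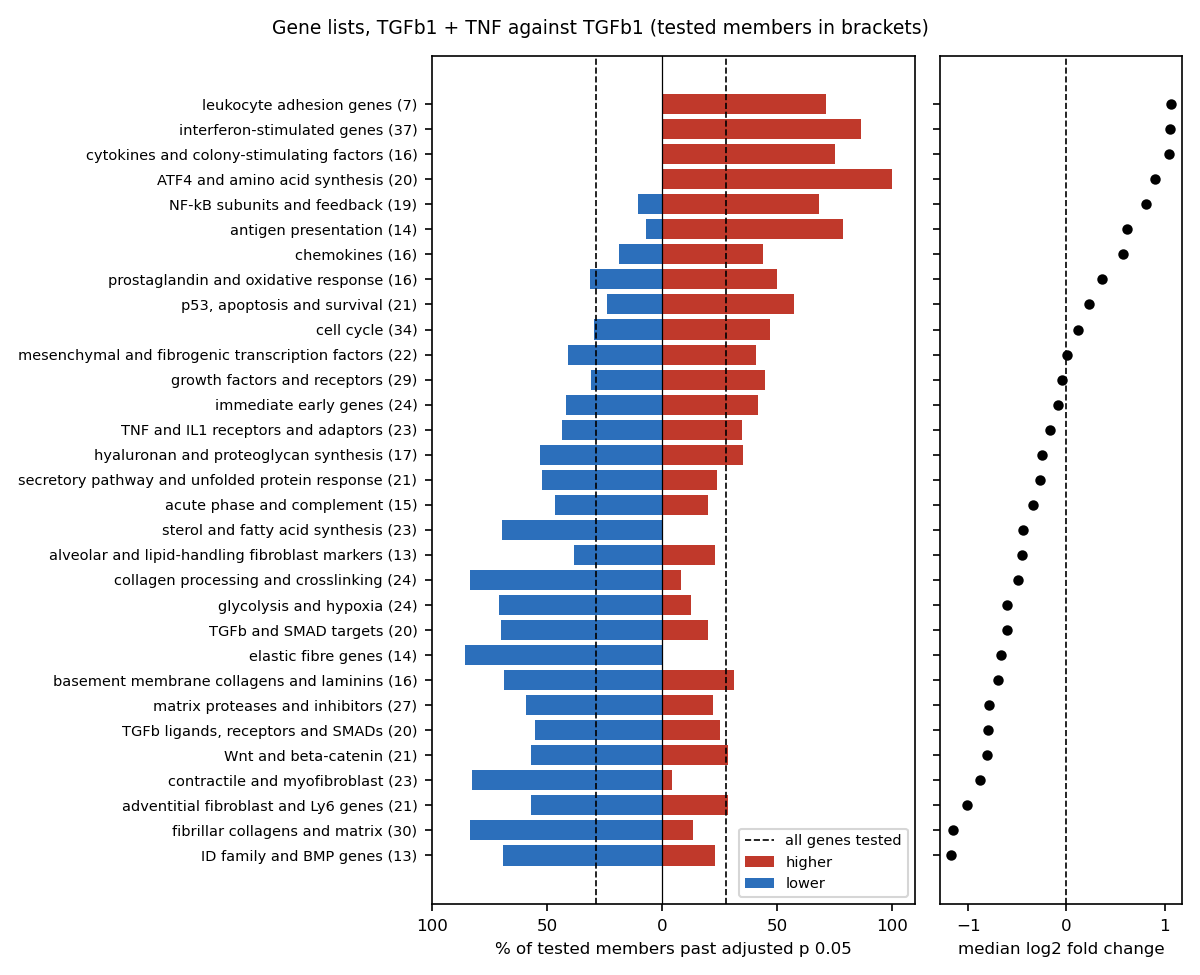
Share of tested members of each of 31 gene lists that passed an adjusted p of 0.05 (left, percent, higher to the right in red and lower to the left in blue, tested members in brackets) and the median log2 fold change of the list (right), for TGFb1 + TNF against TGFb1. Dashed lines give the same over all 16197 genes, 27.7% higher and 28.8% lower, and the lists run from leukocyte adhesion genes (median 1.06) to ID family and BMP genes (median -1.17).

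To see how far these changes were shared by another inflammatory cytokine on the same background, TGFb1 + TNF was tested directly against TGFb1 + IL1b; the sources used here give no dose of either. Of 16197 genes, 3698 were higher with TNF (22.8%) and 4008 lower (24.7%), 47.6% together, and 359 and 1116 by at least 2-fold (2.22% and 6.89%). Collagen genes differed between the cytokines. Col1a1 stood at 25326 ± 574 CPM with IL1b (mean ± SD, n = 3) and 11298 ± 378 with TNF, 2.24-fold lower with TNF, and Col3a1 at 17043 ± 371 and 4241 ± 53.7 CPM, 4.02-fold lower. Of the 30 fibrillar collagen and matrix genes, 26 were lower with TNF than with IL1b and 4 higher. Against TGFb1, which serves as control for both cytokines, Col1a1 stood at -1.29 with TNF and -0.13 with IL1b (log2 fold change).

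Genes of TNF against IL1b were ranked if they passed, had separate groups, averaged 2 log2 CPM or more and had no predicted or clone name. The highest 6 of these were Mmp9, Btc, Ndst3, F2rl1, Dmrta1 and Add2. Without these conditions, 5 genes were at least 16-fold higher with TNF. Mmp9 stood at 27.8 ± 3.11 CPM with IL1b, 13.8-fold below TNF, and F2rl1, the protease-activated receptor PAR2, at 3.17 ± 0.417 and 31.8 ± 4.27 CPM. Add2, a membrane skeleton adducin, stood at 18.1 ± 1.26 CPM with IL1b and 140.0 ± 9.19 with TNF. The lowest 6 under the same conditions were Sprr2b, Fndc1, Nos2, Ccn5, Cyp1b1 and Serpinb1a. The chemokine gene Cxcl5 and the acute phase gene Lcn2 lay below the level needed for this ranking. Cxcl5 stood at 7.81 CPM with IL1b and 0.0124 with TNF (log2 fold change -8.83), and Lcn2 at 1.98 and 0.0372 CPM (-5.57). Nos2, inducible nitric oxide synthase (ENSMUSG00000020826, GRCm38 chromosome 11, 78920787 to 78960254, plus strand), stood at 242 ± 9.95 CPM with IL1b and 4.67 ± 0.803 with TNF, 51.8-fold lower with TNF (adjusted p = 4.96e-24, edgeR). Against TGFb1, where Nos2 stood at 1.22 ± 0.441 CPM, TNF raised it (log2 fold change 1.97). Cyp1b1 stood at 268 ± 17.2 CPM with IL1b and 6.24 ± 0.889 with TNF.

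Inflammatory genes differed between the cytokines gene by gene. Of 16 chemokine genes, 10 were lower with TNF than with IL1b and 2 higher: Cxcl1 stood at 107 ± 18.3 CPM with IL1b against 7.37 ± 0.619 with TNF, and Ccl2 at 303 ± 28.3 against 124 ± 8.55. Ccl5 and Cxcl10 were the exceptions, 1.78-fold and 1.61-fold higher with TNF. Zc3h12a, Nfkbiz and Il6 were 6.67-fold, 4.16-fold and 2.71-fold lower with TNF, while Relb and Nfkbie were 1.33-fold and 1.80-fold higher. Csf2 and Hbegf were 2.61-fold and 3.16-fold higher with TNF. Of 37 interferon-stimulated genes, 8 were higher with TNF, 1 lower and 28 did not pass. Over all genes tested, 22.8% were higher with TNF and 24.7% lower, so 8 of 37 higher is near the share of all genes. The complement genes C3 and C1s1 were 2.34-fold and 2.91-fold lower with TNF.

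**Figure D4:**
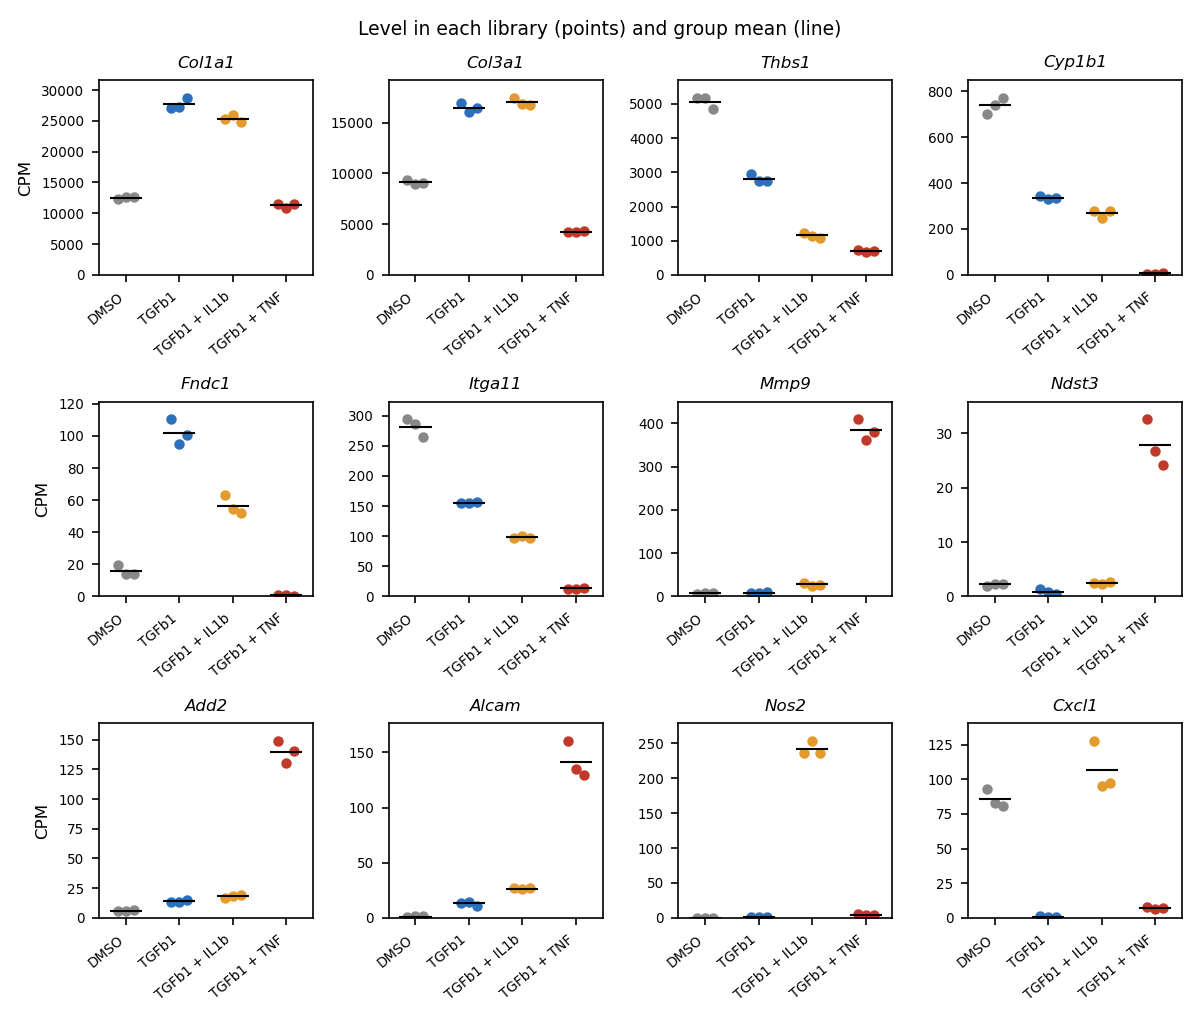
Level (CPM, linear axis from 0) of 12 genes in each library of DMSO (grey), TGFb1 (blue), TGFb1 + IL1b (orange) and TGFb1 + TNF (red), with group means as lines. Col3a1 stays near its TGFb1 level with IL1b and is lowest with TNF, Mmp9 averages 383 CPM with TNF and 27.8 with IL1b, and Nos2 4.67 and 242.

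The TNF response was then set beside the response to TGFb1 itself, taken from TGFb1 + DMSO against DMSO, which shares no library with it. TGFb1 raised 4973 genes (30.7%) and lowered 5064 (31.3%), together 62%, of which 1307 (8.07%) and 2224 (13.7%) by at least 2-fold. TNF lowered 1402 of the genes that TGFb1 raised, which is 28.2% of the TGFb1-raised and 30.01% of the TNF-lowered genes, and raised 1028 of those that TGFb1 lowered (20.3% and 22.9%). The first pair of shares is close to the 28.8% of all genes that TNF lowered and the 30.7% that TGFb1 raised, and the second lies below the 27.7% that TNF raised and the 31.3% that TGFb1 lowered. TNF raised 2085 of the TGFb1-raised genes (41.9% and 46.4%) and lowered 2070 of the TGFb1-lowered (40.9% and 44.3%). Counting only changes of at least 2-fold, TNF raised 250 (19.1%) and lowered 224 (17.1%) of 1307 TGFb1-raised genes, a near-even split, and raised 178 and lowered 574 (25.8%) of 2224 TGFb1-lowered genes, against 6.7% raised and 9.51% lowered over all genes. Across the 16197 genes the log2 fold changes of both responses had a Pearson r of 0.141 and a Spearman rho of 0.184, given as a description, since genes are not independent replicates.

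Genes raised by TGFb1 and lowered by TNF included C1qtnf3, Col8a2, Cxcr6, Lrrc15, Adamts16 and Klhl30, the 6 with the largest change in both. Lrrc15 stood at 0.318 ± 0.137 CPM in DMSO, 29.96 ± 3.60 in TGFb1 + DMSO, 52.4 ± 6.48 in TGFb1 and 5.88 ± 0.549 in TGFb1 + TNF. Col8a2, a short-chain collagen, was at 0.550 ± 0.203 CPM in DMSO, 40.6 ± 4.49 in TGFb1 + DMSO, 40.4 ± 5.94 in TGFb1 and 2.04 ± 0.391 in TGFb1 + TNF. Their TNF levels lay between those of DMSO and TGFb1. For Col1a1 the TNF level was instead slightly below that of DMSO. It stood at 12560.3 ± 142 CPM in DMSO, 25327 ± 385 in TGFb1 + DMSO, 27721 ± 903 in TGFb1 and 11298 ± 378 in TGFb1 + TNF. Against DMSO, TGFb1 + TNF was 1.11-fold lower (log2 fold change -0.15, adjusted p = 0.000284, edgeR). The TGFb1 + TNF label names no solvent, so this comparison cannot tell solvent and cytokines apart. Genes lowered by TGFb1 and raised by TNF included Cxcl1, Kitl, Hhip, Cd34 and Calcrl. Kitl, the ligand of the receptor KIT on mast cells, stood at 19.9 ± 3.34 CPM in DMSO, 2.66 ± 0.418 in TGFb1 + DMSO, 2.37 ± 0.668 in TGFb1 and 16.5 ± 0.538 in TGFb1 + TNF. Hhip, a hedgehog antagonist, stood at 33.2 ± 4.02, 5.02 ± 1.34, 6.41 ± 0.503 and 48.6 ± 2.85 CPM in these groups. Cxcl1 regained little of its level, at 85.5 ± 6.52 CPM in DMSO and 7.37 ± 0.619 in TGFb1 + TNF.

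Spp1, Tnc, Vegfa and Inhba were raised by TGFb1 and raised again by TNF. Spp1 stood at 158 ± 3.32 CPM in DMSO, 1824 ± 196 in TGFb1 + DMSO and 9789 ± 675 in TGFb1 + TNF. Fmod and Adm were lowered by both, Fmod from 341 ± 12.7 CPM in DMSO to 101 ± 3.67 in TGFb1 + DMSO and 4.43 ± 0.891 in TGFb1 + TNF.

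**Figure D5:**
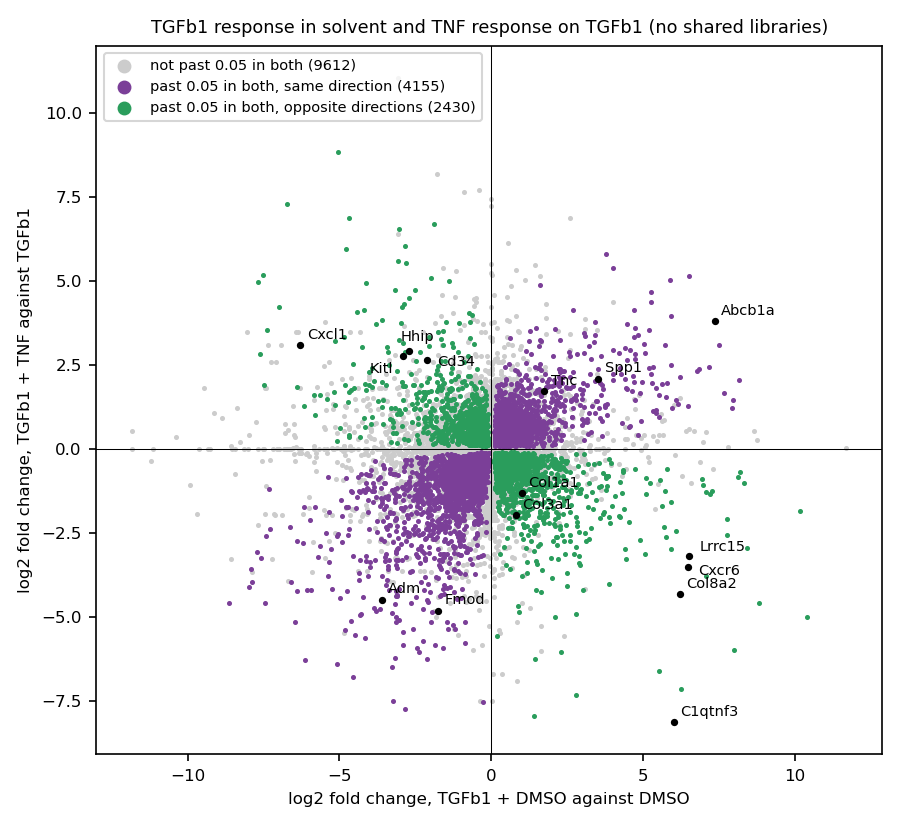
Log2 fold change of each gene with TNF (TGFb1 + TNF against TGFb1, vertical axis) against that with TGFb1 (TGFb1 + DMSO against DMSO, horizontal axis), which use different libraries. Of genes past an adjusted p of 0.05 in both, 4155 moved the same way (purple) and 2430 opposite ways (green), with C1qtnf3 and Lrrc15 raised by TGFb1 and lowered by TNF, and Cxcl1, Kitl and Hhip the reverse.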

How the data were processed

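Sequencing was of total RNA from mouse lung fibroblasts, with a stranded kit per the labels' protocols. The authors deposited a table of gene counts for 21 libraries; the values are whole numbers, and single-library tables hold the same counts. The submitters' processing notes name GRCh38 and GRCm38 with no role, and the sources used here give no aligner, counter or strand setting. Of 52636 genes, 52403 matched GENCODE M21 by identifier, and the 233 others held 0.0192% of counts and stayed unnamed.

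All 21 libraries entered 1 fit with a coefficient for each of the 7 groups (R 4.3.3, edgeR 4.0.16: filterByExpr, TMM, robust quasi-likelihood F-test). It tested 16197 genes at a Benjamini-Hochberg adjusted p of 0.05. Standard errors (after ±) of log2 fold changes come from the F statistic. A fold against 0 counts is a lower bound, set at 3 counts over the group. On simulated counts for TGFb1 + TNF against TGFb1, the test recovered 68 of 80 genes changed 1.5-fold and 60 of 60 changed 2-fold, with 12 others called, among 15636 genes.

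Genes named were the 15 highest and 15 lowest that passed, had separate groups and averaged 2 log2 CPM or more. The 6 highest and 6 lowest against TGFb1 + IL1b and 6 in each opposed class met the same conditions in the comparisons concerned. Also named were the 8 largest gains and losses in CPM. Genes with predicted or clone names were left out of these rankings. List members were named in order of change. Some list members were named for their role after their values were seen. A few genes that the rule names are not reported here. The members and gene lists were chosen with earlier results of these data known. DESeq2 1.42.0, limma 3.58.1 (voom), other scaling and filters, another control and leaving out each library were tried as alternatives.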

Additional observations from a re-analysis of the deposited data

How the results depend on the processing

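The genes higher with TNF than with TGFb1 numbered 4216 to 4552 and those lower 4216 to 4740 over all alternatives. Against TGFb1 + IL1b they numbered 3277 to 3954 and 3581 to 3989. Genes raised by TGFb1 and lowered by TNF numbered 1333 to 1445, and genes lowered and then raised 881 to 1088. Leaving out 1 library at a time gave 4216 to 4319 higher and 4376 to 4481 lower. Each of these counts stayed within 1.5 times of its reported value. Fn1 passed the threshold with limma voom (adjusted p = 0.0228), with no filter (adjusted p = 0.0423, edgeR) and with TGFb1 + DMSO as control (log2 fold change 0.22). With that control log2 fold changes turned from negative to positive for Ccn2 (0.057), Egfr (0.058) and Hspa5 (0.062) and from positive to negative for Tgfbr1 (-0.090), and 3 contractile genes were higher in place of 1 and 2 sterol genes in place of 0. Smad7, at 0, turned negative in the fit of the groups compared (-0.003), with the stricter filter (-0.004) and without mitochondrial and rRNA genes (-0.005), and ranged from -0.062 to 0.062 when 1 library was left out; Tgfbr1 ranged from -0.021 to 0.081. No paired analysis was possible because the labels carry no replicate number and libraries were numbered in record order. With 3 libraries in each group and no dose or time given, the counts describe these libraries at 1 condition. In the simulated counts, 1.5-fold changes were missed more often than larger ones. A far smaller share of genes was changed there than passed here, so the simulation cannot give the rate missed in these data.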
